A study of Mus musculus with 3 samples.

Results

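A set of 10 chemokine genes is described in 3 single-nucleus RNA libraries of whole mouse cornea: Ccl2, Ccl7, Ccl8, Ccl5, Cxcl1, Cxcl2, Cxcl5, Ccl20, Cxcl12 and Cxcl13. The 10 genes were chosen by symbol and matched by Ensembl ID, and all 10 of 10 were found among the 30406 Ensembl IDs that the 3 gene lists share. The WT library holds the corneas of untreated wild-type mice, the KO library those of untreated Aire knockout mice, and the KO_PBS library those of Aire knockouts treated for 14 days with phosphate-buffered saline (PBS). Each pools 5 mice at 7 weeks of age, and the corneas were snap frozen. Aire drives the expression of self-antigens in the thymus, and the series text describes its loss as a dry eye model. That text gives 6 weeks of age and treatment day 7 in place of the labels' values, and a lacripep arm named there is not analysed here. The strain, the sex and the position of the Aire deletion are not given in the sources used here.

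Chemokines are small secreted proteins that direct leukocytes along gradients by binding G protein-coupled receptors, and they are divided by the spacing of their first cysteines into the CC and CXC groups. Ccl2 and Ccl7 act on Ccr2 of monocytes, Ccl5 on Ccr1 of monocytes and macrophages, Ccl20 on Ccr6, and Cxcl1, Cxcl2 and Cxcl5 on Cxcr2 of neutrophils. Cxcl12 acts on Cxcr4 and Ackr3, and Cxcl13 draws B cells into follicles through Cxcr5. The healthy cornea is free of blood vessels apart from its rim and holds few leukocytes, and chemokines made by its epithelium, keratocytes and resident macrophages recruit more of them in inflammation.

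Levels are given as CPM, the UMIs (unique molecular identifiers, 1 per captured RNA molecule) of a gene scaled to a library total of 1000000 UMIs, with exact 95% Poisson intervals. With 1 library per group there was no test and no replicate check, and all intervals cover counting error only. A gene was counted as higher or lower by a rule of size: the pair of libraries held 50 UMIs or more of it, the ratio reached 2 (counts under 3 were raised to 3), and the Poisson intervals were apart. In whole tissue, fewer cells of a type and less RNA per cell cannot be told apart. Because each condition is 1 library, preparation and condition cannot be told apart either.

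The libraries held 96587 to 114357 barcodes and 178988562 to 352627863 UMIs, with KO_PBS the shallowest at a median of 1422 UMIs per barcode against 2253 in WT and 2970 in KO. KO_PBS also stood apart in its RNA from other eye tissues: the 9 lens markers found summed to 8117 CPM, against 497 in WT and 191 in KO, and the 7 photoreceptor markers to 1887 against 152 and 63.4. Ddx3y, a Y-linked gene, was at 5.97 CPM in KO_PBS and at 0.211 in both other libraries. Krt12, the defining keratin of corneal epithelium, was present in every library, at 26121 CPM in WT, 13793 in KO and 6205 in KO_PBS. Aire itself had 15, 27 and 68 UMIs (WT, KO, KO_PBS), and these do not check the genotypes because the deleted part is not given. Between 2833 and 3379 barcode sequences occurred in both libraries of a pair. KO_PBS was also counted against another gene list, of 31053 IDs, where WT and KO each had 32285. The part of these differences in the chemokine values was not tested.

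Every one of the 10 chemokines was higher in KO than in WT by the rule of size, by 4.33-fold (Cxcl12) to 155-fold (Ccl5). Among all 20252 genes with at least 50 UMIs, 20.6% were higher and 8.63% lower, and none of the 10 was lower. The median log2 ratio of the 10 was 4.14, against 0.24 for all genes tested. KO_PBS exceeded WT for all 10 as well, where 57% of all genes were higher and 4.06% lower, and the median log2 ratio was 4.57 for the chemokines and 1.27 for all genes. Both comparisons share the WT library, so they are not independent. The 10 chemokines were chosen with earlier results of these data known, so their counts beside all genes are descriptions only. Between the knockout libraries the differences were smaller: 1 of 10, Cxcl5, was lower in KO_PBS than in KO, where 4.7% of all genes were lower, and none was higher, against 39.9%.

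The typical gene lay 0.63 log2 units higher in KO_PBS than in KO, 0.24 higher in KO than in WT and 1.27 higher in KO_PBS than in WT. Relative to that shift, 5 of 10 chemokines were lower in KO_PBS than in KO (Ccl5, Ccl7, Ccl8, Cxcl1 and Cxcl5), against 12.9% of all genes, and none was higher, against 29.8%. Their median log2 ratio went from -0.39 to -1.02. All 10 remained higher in KO than in WT on the centred scale, against 14.8% of all genes. Over WT, 9 of 10 stayed higher in KO_PBS, against 29.6%, and Cxcl5 did not.

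**Figure D1:**
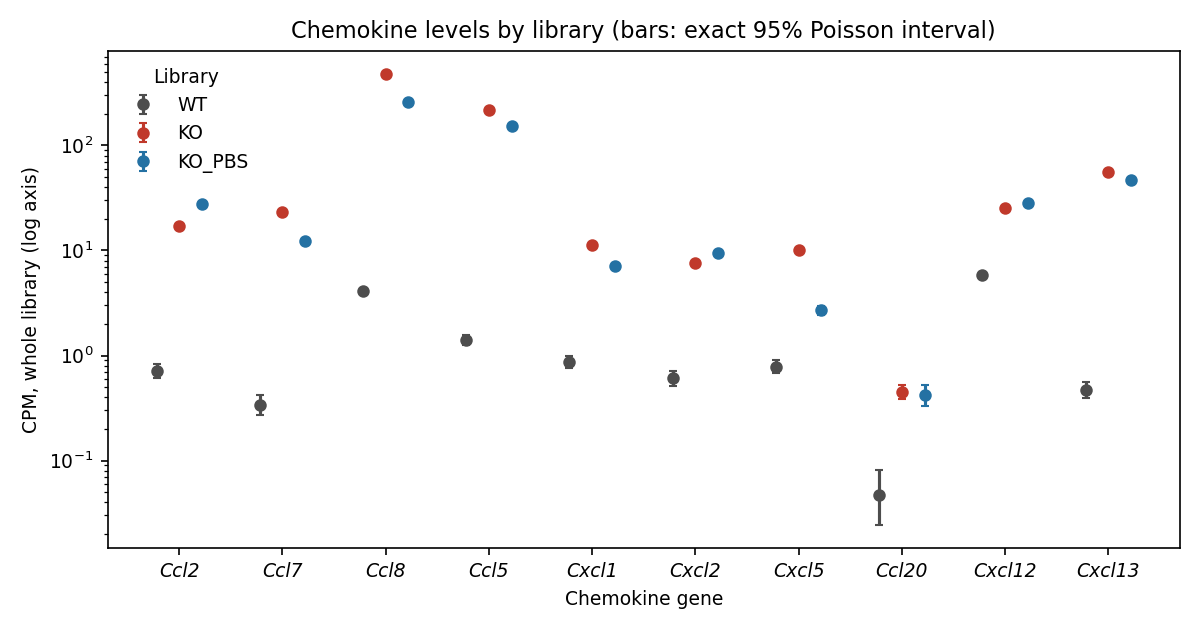
CPM of each chemokine gene in the WT, KO and KO_PBS libraries on a log axis, with exact 95% Poisson intervals as bars. WT lies lowest for all 10 genes; Ccl5 goes from 1.41 to 220 and 154, and Cxcl5 from 0.781 to 10.2 and 2.68. Points should be compared within a gene, since levels are not scaled by transcript length.

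**Figure D2:**
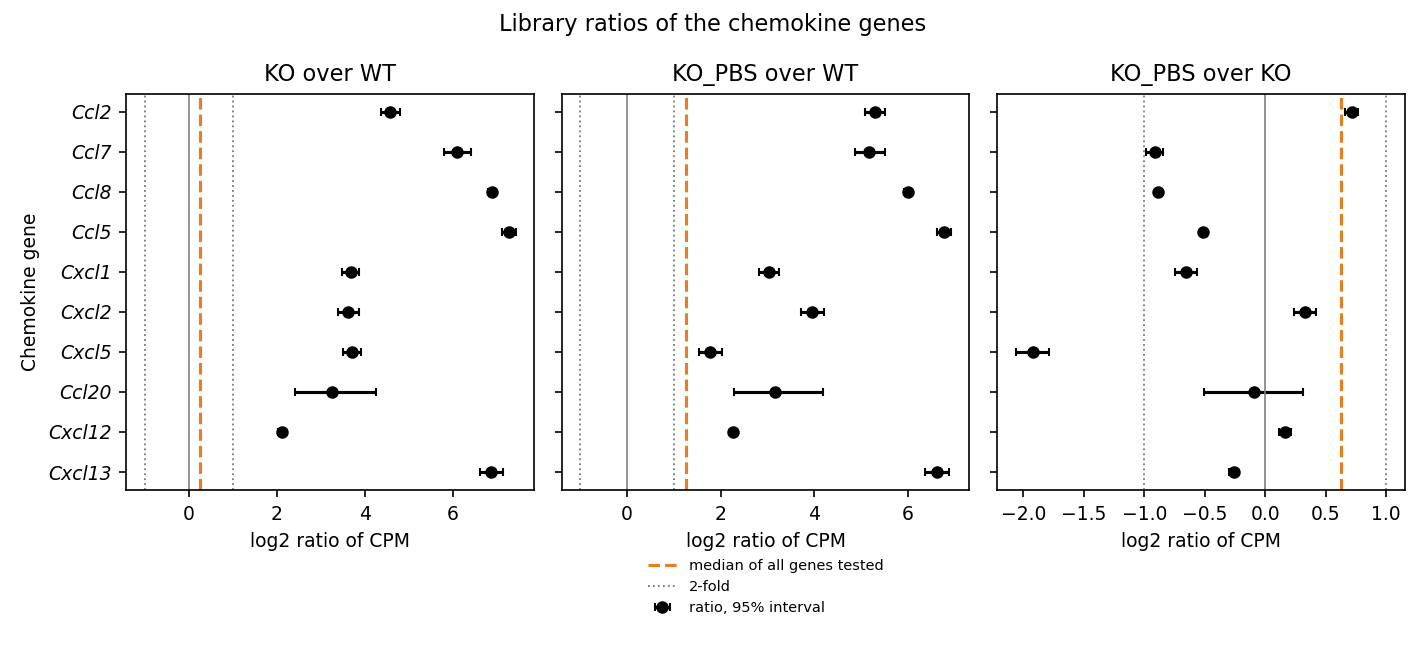
Log2 ratios of CPM for the 10 chemokines in the 3 library comparisons, with 95% intervals from counting error. Dashed lines mark the median of all genes tested (0.24, 1.27 and 0.63), dotted lines a 2-fold ratio. In KO_PBS over KO, 9 of 10 points lie inside the 2-fold lines and Cxcl5 lies below at -1.92.

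The CC chemokines Ccl2, Ccl7 and Ccl8 lie close together on chromosome 11 (GRCm38, GENCODE annotation): Ccl2 at chr11:82035571-82037453, Ccl7 at chr11:82045712-82047525 and Ccl8 at chr11:82115185-82116799, all on the plus strand. Ccl2, the main ligand of Ccr2, had 182, 5981 and 4965 UMIs in WT, KO and KO_PBS, or 0.711, 17.0 and 27.9 CPM. KO was thus 23.9-fold above WT (95% interval 20.7 to 27.9), and KO_PBS 1.64-fold above KO (1.58 to 1.70), a gap below the 2-fold rule that left 0.08 log2 units once the shift of all genes was taken out. Ccl2 lies within Gm17268 on the opposite strand (chr11:82028224-82038562), and the counting strand is not given in the sources used here, so UMIs of the pair may not be fully separated.

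Ccl7, a close relative of Ccl2, was counted at 0.340 CPM in WT, 23.3 in KO and 12.3 in KO_PBS (87, 8169 and 2194 UMIs). The KO level was 68.4-fold the WT level (55.4 to 85.5), and it was 1.88-fold the KO_PBS level (1.80 to 1.98). Unlike Ccl2, Ccl7 therefore had its highest level in the untreated knockout, although the 2 genes are neighbours. Ccl8, a chemokine of the same group that macrophages make, stood at 4.08 CPM in WT, 483 in KO and 261 in KO_PBS, from 1043, 169669 and 46486 UMIs. Its ratio was 118-fold for KO over WT (111 to 126) and 64.1-fold for KO_PBS over WT (60.3 to 68.3). KO exceeded KO_PBS 1.85-fold (1.83 to 1.87). Both ratios of KO moved when each barcode was counted once whatever its number of Ccl8 UMIs: the log2 ratio went from 6.89 to 5.95 for KO over WT and from -0.89 to -0.08 for KO_PBS over KO. Barcodes with 3 or more Ccl8 UMIs held 56.4% of its UMIs in KO and 11.9% in KO_PBS. Both this share and the single count depend on depth, at medians of 2970 and 1422 UMIs per barcode. They also depend on how many barcodes held Ccl8 at all, 71.0% in KO and 31.8% in KO_PBS. They do not show that Ccl8 was concentrated in some barcodes of KO.

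The upstream window of Ccl8 is shown because its level was the one most concentrated in macrophage marker-rich barcodes of WT, described further on. It is the 250 bases before the RefSeq start (GRCm38.p6, chr11:82114935-82115184, plus strand), 5′ to 3′, with a TATAAA box motif in capitals from 32 to 27 bases before the start:
Ccl8: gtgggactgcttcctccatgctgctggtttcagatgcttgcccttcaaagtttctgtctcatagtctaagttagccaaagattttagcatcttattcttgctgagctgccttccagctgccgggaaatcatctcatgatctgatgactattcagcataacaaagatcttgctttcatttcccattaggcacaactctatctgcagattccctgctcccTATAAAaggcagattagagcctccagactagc
TATAAA occurs on either strand in 12.4% of all 32851 such windows. Of the 10 chemokines, 6 had a window in the RefSeq table (Ccl8, Ccl20, Cxcl1, Cxcl2, Cxcl12 and Cxcl13), and 2 of these 6, Ccl8 and Cxcl13, held the motif. A match describes the letters only.

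A receptor of Ccl2 and Ccl7 differed too. Ccr2, the receptor of Ccl2 and Ccl7 on monocytes, went from 1.17 CPM in WT to 32.6 in KO and 25.6 in KO_PBS. The 12 macrophage markers, all detected in each library, summed to 107, 1426 and 1408 CPM in the same order. The share of that marker difference in the Ccl2, Ccl7 and Ccl8 levels was not tested. Relative to the shift of all genes, 3 of the 12 markers were lower in KO_PBS than in KO and none was higher, against 12.9% and 29.8% of all genes.

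Ccl5 (chr11:83525778-83530518, minus strand), made by T cells, NK cells and macrophages, was the chemokine with the widest gap between KO and WT. Its UMIs numbered 362 in WT, against 77169 in KO and 27422 in KO_PBS, or 1.41, 220 and 154 CPM. These values put KO 155-fold above WT (140 to 173) and KO_PBS 109-fold above WT (98.3 to 121). KO exceeded KO_PBS 1.42-fold (1.40 to 1.44). Ccr1, a receptor of Ccl5, had levels of 0.551, 12.9 and 5.06 CPM from WT through KO to KO_PBS. It was lower in KO_PBS than in KO by the rule of size, with a log2 ratio of -1.35. The 13 T cell markers summed to 14.7, 195 and 208 CPM, and the 7 NK cell markers to 0.672, 34.9 and 37.9. Their part in the Ccl5 level was not tested.

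The neutrophil-attracting chemokines Cxcl1, Cxcl2 and Cxcl5 are neighbours on chromosome 5 (GRCm38), with Cxcl5 at chr5:90759360-90761624, Cxcl1 at chr5:90891241-90893115 and Cxcl2 at chr5:90903871-90905938, all on the plus strand. All 3 bind Cxcr2. From WT to KO they differed by similar ratios, 12.8-fold for Cxcl1 (11.2 to 14.7), 12.4-fold for Cxcl2 (10.5 to 14.6) and 13.0-fold for Cxcl5 (11.3 to 15.1). In KO_PBS the 3 parted.

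Cxcl1 had 224, 3938 and 1268 UMIs in WT, KO and KO_PBS, or 0.875, 11.2 and 7.13 CPM, so that KO exceeded KO_PBS 1.57-fold (1.48 to 1.68). Cxcl5, which epithelial and stromal cells make, had 200, 3573 and 477 UMIs, or 0.781, 10.2 and 2.68 CPM. Its KO level was 3.79-fold its KO_PBS level (3.44 to 4.18), and it was lower in KO_PBS under all 7 alternative settings. Cxcl2 had 156, 2647 and 1681 UMIs, or 0.610, 7.53 and 9.45 CPM, and was 1.25-fold higher in KO_PBS than in KO (1.18 to 1.33); relative to the shift of all genes this turned into a log2 ratio of -0.30. In KO_PBS 24.7% of the Cxcl2 UMIs sat in 40 barcodes with 3 or more of them, with up to 65 in 1 barcode. The 25% of barcodes with the fewest UMIs (low-UMI barcodes) gave a Cxcl2 level of 6.74 CPM in KO_PBS and 7.72 in KO, so the higher Cxcl2 level of KO_PBS did not hold there.

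The upstream windows of Cxcl1 and Cxcl2 are shown side by side because both genes were high in the same barcodes of KO_PBS. They are the 250 bases before each RefSeq start (GRCm38.p6, plus strand, chr5:90890995-90891244 for Cxcl1 and chr5:90903649-90903898 for Cxcl2), 5′ to 3′. Capitals mark the longest run of letters that the 2 windows share, 14 bases:
Cxcl1: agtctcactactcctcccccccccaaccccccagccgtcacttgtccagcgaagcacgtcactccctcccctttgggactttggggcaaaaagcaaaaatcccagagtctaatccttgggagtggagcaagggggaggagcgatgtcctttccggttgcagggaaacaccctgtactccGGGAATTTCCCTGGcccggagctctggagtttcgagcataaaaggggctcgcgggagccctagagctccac
Cxcl2: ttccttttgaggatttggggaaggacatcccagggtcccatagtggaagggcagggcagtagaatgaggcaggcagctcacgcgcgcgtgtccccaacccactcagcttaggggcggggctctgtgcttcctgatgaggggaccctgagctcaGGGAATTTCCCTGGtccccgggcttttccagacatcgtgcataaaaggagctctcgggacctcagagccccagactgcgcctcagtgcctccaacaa
The shared run GGGAATTTCCCTGG lies 71 to 58 bases before the start of Cxcl1 and 97 to 84 bases before that of Cxcl2. Searched on both strands, it occurred in 2 of 32851 windows, those it was read from. Its first 10 bases, GGGAATTTCC, are a form of the motif bound by NF-kB, the transcription factor of inflammatory signalling, and 28 windows, or 0.0852%, held them. Cxcl1 and Cxcl2 had to hold this form, since it was cut from the run they share, and no other of the 6 chemokines with a window had it. TGANTCA, a motif of AP-1 factors, occurred in 6.75% of all windows and in none of the 6, which says only that these letters are not in these windows.

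Cxcr2, the receptor of this group, went from 0.231 CPM in WT to 2.60 in KO and 1.42 in KO_PBS. The 11 neutrophil markers, Cxcr2 among them, were all detected and summed to 11.3, 697 and 77.4 CPM. Most of the sum in KO came from S100a9 (430 CPM) and S100a8 (218 CPM), which were at 32.5 and 8.19 CPM in KO_PBS. By the rule of size, 5 of the 11 markers were lower and 1 was higher in KO_PBS than in KO, against 4.7% and 39.9% of all genes. Relative to the shift of all genes 8 were lower and none was higher, against 12.9% and 29.8%. Their median log2 ratio was -0.87, and that of all genes 0.63. Their part in the levels of Cxcl1, Cxcl2 and Cxcl5 was not tested. Cxcl3, a further Cxcr2 ligand that lies between Cxcl5 and Cxcl1, had 5, 756 and 80 UMIs in WT, KO and KO_PBS, and it was lower in KO_PBS than in KO with a log2 ratio of -2.26.

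Ccl20 (chr1:83116766-83119167), the ligand of Ccr6, was scarce in all libraries, with 12 UMIs in WT against 158 in KO and 75 in KO_PBS. These correspond to 0.0469, 0.450 and 0.422 CPM. KO lay 9.59-fold above WT (5.34 to 19.0), an interval that is wide because WT had 12 UMIs. KO and KO_PBS were not separated at this depth, with a ratio of KO over KO_PBS of 1.07 (0.805 to 1.42). Ccr6, found on B cells and T cells, had 0.242 CPM in WT, against 2.47 in KO and 1.73 in KO_PBS.

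Cxcl12 (chr6:117168535-117181367, plus strand), a chemokine made constantly by stromal and endothelial cells, had the narrowest gap to WT in KO of the 10 chemokines. It had 1506, 8943 and 5064 UMIs in WT, KO and KO_PBS, or 5.88, 25.5 and 28.5 CPM. The ratio to WT was 4.33-fold in KO (4.10 to 4.57) and 4.84-fold in KO_PBS (4.57 to 5.13). KO_PBS was 1.12-fold above KO (1.08 to 1.16), and relative to the shift of all genes this became a log2 ratio of -0.47. Cxcr4, its signalling receptor on leukocytes, had 14, 2511 and 876 UMIs, or 0.0547, 7.15 and 4.93 CPM. Ackr3, which scavenges Cxcl12, was at 5.20, 9.64 and 16.4 CPM, a step below 2-fold at each stage. The 11 vascular endothelial markers summed to 47.7, 120 and 227 CPM, and their part in the Cxcl12 level was not tested.

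Cxcl13 (chr5:95956951-95961068, plus strand), the B cell chemokine of lymphoid follicles, went from 121 UMIs in WT to 19533 in KO and 8250 in KO_PBS, or 0.473, 55.6 and 46.4 CPM. KO stood 118-fold above WT (98.4 to 142) and KO_PBS 98.1-fold (82.0 to 118). Between the knockout libraries the ratio of KO over KO_PBS was 1.2 (1.17 to 1.23). Its receptor Cxcr5 was at 2.03, 3.30 and 5.02 CPM and did not pass the rule of size in KO over WT or in KO_PBS over KO. It passed as higher in KO_PBS over WT, as did all 10 listed receptors tested there, against 57% of all genes. Relative to the shift of all genes, 8 of these 10 receptors stayed higher, against 29.6%. The 9 B cell markers summed to 33.5, 192 and 209 CPM, and their part in the Cxcl13 level was not tested. The window upstream of Cxcl13 (GRCm38.p6, chr5:95956689-95956938, plus strand) is shown as the other of the 2 with TATAAA, in capitals from 46 to 41 bases before the RefSeq start:
Cxcl13: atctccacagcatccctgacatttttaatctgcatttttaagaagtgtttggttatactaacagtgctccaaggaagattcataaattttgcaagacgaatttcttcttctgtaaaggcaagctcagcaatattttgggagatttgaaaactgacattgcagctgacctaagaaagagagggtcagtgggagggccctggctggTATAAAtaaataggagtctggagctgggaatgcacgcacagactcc

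The pathways around the 10 chemokines were read from gene lists that were chosen with earlier results of these data known, and are described by counts beside the 20.6% of all genes that were higher in KO than in WT. Of 11 listed receptors of the 10 chemokines with enough UMIs, 9 were higher in KO and the other 2, Cxcr5 and Ackr3, were not. Between KO_PBS and KO, 1 of 11 was higher (Ackr1, a chemokine-binding receptor of venules, log2 ratio 1.70) and 1 was lower (Ccr1), against 39.9% and 4.7% of all genes. Relative to the shift of all genes, 1 receptor was higher and 4 were lower, against 29.8% and 12.9%. Of 25 other chemokines, 19 passed as higher in KO against WT and 1 as lower. Their extremes were Cxcl9, an interferon-induced ligand of Cxcr3, which went from 0.359 CPM in WT to 203 in KO, and Ccl28, a mucosal epithelial chemokine, at 1.07 in WT and 0.350 in KO. From KO to KO_PBS, 4 of these 25 were higher and 4 lower, or 2 and 6 relative to the shift. The lowest ratio was that of Ccl19, the ligand of Ccr7, at 85.5 CPM in KO and 3.31 in KO_PBS; its UMIs were summed over several near-identical gene copies, which the counting may have split.

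Cytokines that induce chemokines were higher in KO than in WT in 8 of 9 cases, and 17 of 18 lymphoid tissue genes were higher, or 7 of 9 and 15 of 18 relative to the shift of all genes. Among 16 genes of the NF-kB pathway 11 were higher, or 7 of 16 relative to the shift of all genes. Their median log2 ratio was 1.17, against 3.38 for the cytokines, 3.49 for the receptors and 2.79 for the lymphoid tissue genes. Tslp was the cytokine that did not differ, at 11 CPM in both libraries, and Ifng, the interferon of T and NK cells, had 1 UMI in WT and 453 in KO. Between KO_PBS and KO, 3 of 10 cytokines were higher and 2 were lower, or 2 and 3 relative to the shift, beside the same shares of all genes. Il17f had 8 UMIs in KO and 95 in KO_PBS, Tnf went from 3.39 to 16.3 CPM and Tslp from 11 to 4.98.

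Barcodes with at least 1 UMI of a chemokine were widespread in the knockout libraries. At least 1 of the 10 chemokines had a UMI in 3.52% of the barcodes of WT (Clopper-Pearson 95% interval 3.41 to 3.64), in 87.8% of those of KO (87.6 to 88.0) and in 54.3% of those of KO_PBS (54.0 to 54.6). Because depth differed, each barcode was also thinned to 1000 UMIs, which left out 265, 226 and 16860 barcodes of WT, KO and KO_PBS. The shares were then 1.38%, 55.2% and 41.6%, in the same order. Ccl8 alone was found in 0.927% of WT, 71.0% of KO and 31.8% of KO_PBS barcodes, and Ccl5 in 0.333%, 47.0% and 20.1%.

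Barcodes chosen by photoreceptor markers had similar shares. Photoreceptor marker-rich barcodes had at least 3 photoreceptor markers and a summed marker level at least 5 times that of their library. Among them, 4.28% in WT (3.01 to 5.87), 88.7% in KO (84.7 to 91.9) and 61.3% in KO_PBS (56.9 to 65.5) held a chemokine UMI, at median depths of 2556, 3558 and 1920 UMIs, deeper than their libraries. At a matched depth of 1000 UMIs, 2.14% of the photoreceptor marker-rich barcodes in WT (1.27 to 3.37), 50.8% in KO (45.2 to 56.3) and 37.4% in KO_PBS (33.1 to 42.0) held a chemokine UMI, intervals that include the 1.38%, 55.2% and 41.6% of all barcodes. At 500 UMIs, KO_PBS had 18.6% (15.4 to 22.3) against 24.3% of all barcodes, which lay above the interval. For Ccl8 alone the share of all KO_PBS barcodes lay above the interval at both depths, 22.7% against 18.8% (15.4 to 22.6) at 1000 UMIs and 12.6% against 8.54% (6.28 to 11.3) at 500. The photoreceptor markers summed to 152 CPM in WT and 63.4 in KO, against 1887 in KO_PBS. A few stray marker UMIs could therefore pass the rule in WT and KO, so these barcodes need not hold photoreceptor nuclei. Similar shares are thus no check there. Shares of barcodes with a UMI are not read as shares of nuclei that express a chemokine. In low-UMI barcodes of KO, each chemokine stood at 0.920 (Cxcl1) to 1.05 (Cxcl5) times its level in the whole library. The ratios spread more widely in KO_PBS, from 0.711 (Ccl20, 8 UMIs) and 0.713 (Cxcl2) to 1.14 (Ccl5). In WT they went from 0.479 (Ccl7, 6 UMIs) to 1.11 (Cxcl5), and none of the 12 Ccl20 UMIs lay in such barcodes.

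**Figure D3:**
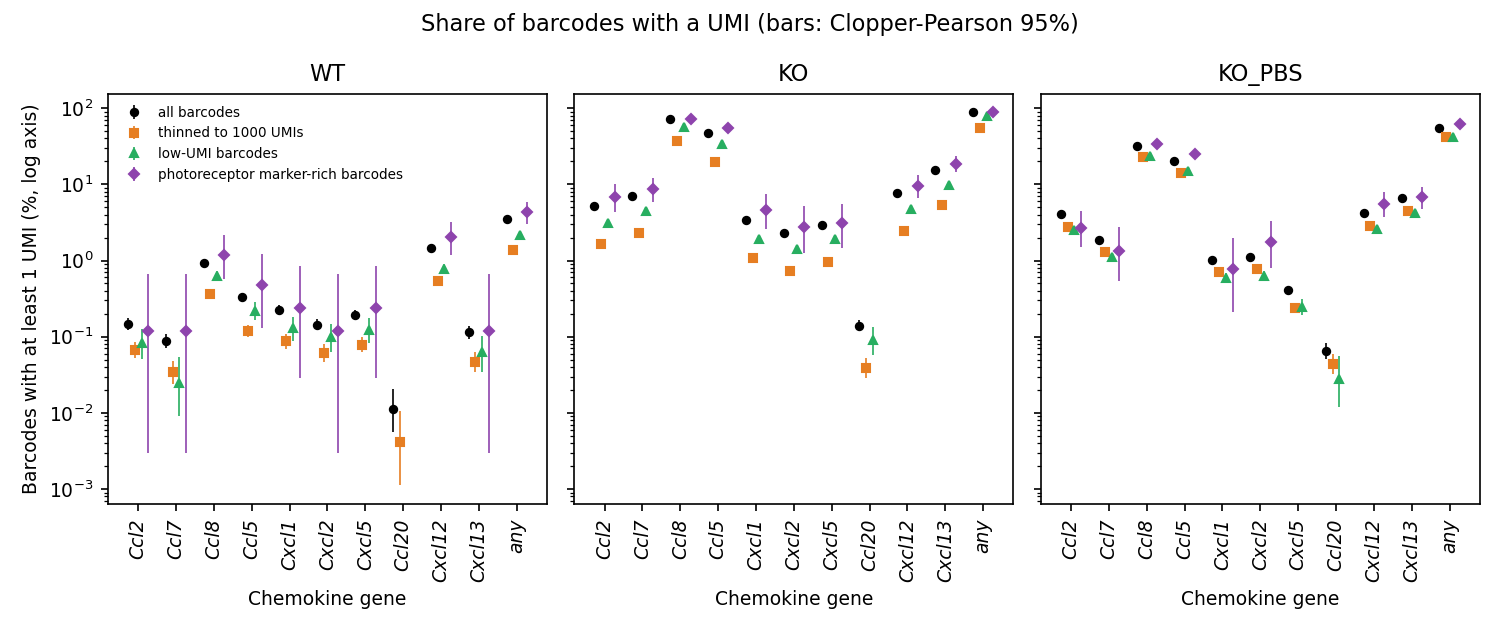
Share of barcodes with at least 1 UMI of each chemokine, or of any of the 10, in each library on a log axis, with Clopper-Pearson 95% intervals. Black circles are all barcodes, orange squares barcodes thinned to 1000 UMIs, green triangles low-UMI barcodes and purple diamonds photoreceptor marker-rich barcodes; shares of 0 are not drawn. In KO the purple diamonds for any chemokine lie at 88.7%, beside 87.8% of all barcodes.

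Some barcodes stood above this level. Marker-rich barcodes were defined in the same way for each cell type from marker lists that hold none of the 10 chemokines. They are not cell types, no doublets were removed, and a barcode may hold more than 1 nucleus. In WT, 624 barcodes were rich in macrophage markers, with 67 within 20% below the threshold and 46 within 20% above it. Their Ccl8 level was 67.0 CPM (57.4 to 77.8) against 3.44 in all other barcodes, a ratio of 19.5 (16.4 to 23.0). Ccl2 was 15.0 times as high there (9.33 to 23.1), Cxcl13 12.9 times (6.83 to 22.6), Cxcl5 6.86 times (3.59 to 12) and Cxcl12 3.81 times (2.86 to 4.98). Those ratios rest on 24 Ccl2, 14 Cxcl13 and 13 Cxcl5 UMIs.

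The macrophage markers summed to 1426 CPM in KO and 1408 in KO_PBS, against 107 in WT, so the threshold was higher there. Ratios of the knockout libraries are therefore not compared with those of WT. Macrophage marker-rich barcodes numbered 130 in KO and 178 in KO_PBS. In KO their Ccl8 level was 2037 CPM, 4.23 times that of the others (3.95 to 4.53), with Ccl5 3.27 times (2.91 to 3.68), Cxcl5 2.71 times (1.35 to 4.85) and Cxcl13 2.30 times (1.71 to 3.02). KO_PBS gave 1878 CPM for Ccl8, 7.26 times the others (6.68 to 7.88), with Ccl5 5.49 times (4.84 to 6.20) and Cxcl13 3.54 times (2.63 to 4.66). Ccl8 and Cxcl13 were thus higher in these than in the other barcodes of every library, and Ccl2 was not separated from the other barcodes in KO (ratio 1.17, 0.507 to 2.32) or KO_PBS (1.38, 0.712 to 2.41). With a threshold of 10 times the library level, 5 such barcodes were left in KO and 2 of its 4 chemokines kept an interval above 1.

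Vascular endothelial marker-rich barcodes carried Cxcl12. In WT 189 such barcodes had 93.4 CPM (77.2 to 112) against 5.45 in the others, a ratio of 17.1 (14.1 to 20.7). The ratio was 2.12 in KO (1.83 to 2.44, 908 barcodes) and 1.93 in KO_PBS (1.57 to 2.34, 874 barcodes). Vascular endothelial markers summed to 47.7 CPM (WT), 120 (KO) and 227 (KO_PBS), and the threshold rose with them. The Cxcl12 ratios are therefore not compared between libraries. How many barcodes passed the rule through stray marker UMIs was not tested. B cell marker-rich barcodes had more Cxcl13 than the others, 1.31 times in KO (1.15 to 1.5) and 1.89 times in KO_PBS (1.55 to 2.30), but in KO none of its chemokines kept an interval above 1 at the stricter threshold. Barcodes rich in conjunctival or skin-type epithelial markers had 2.99 times as much Cxcl2 in KO (2.14 to 4.07) and 2.17 times in KO_PBS (1.24 to 3.54). Cxcl1 was higher in them in KO_PBS, 2.89 times (1.65 to 4.71), and not separated in KO, at 0.678 times (0.370 to 1.14).

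**Figure D4:**
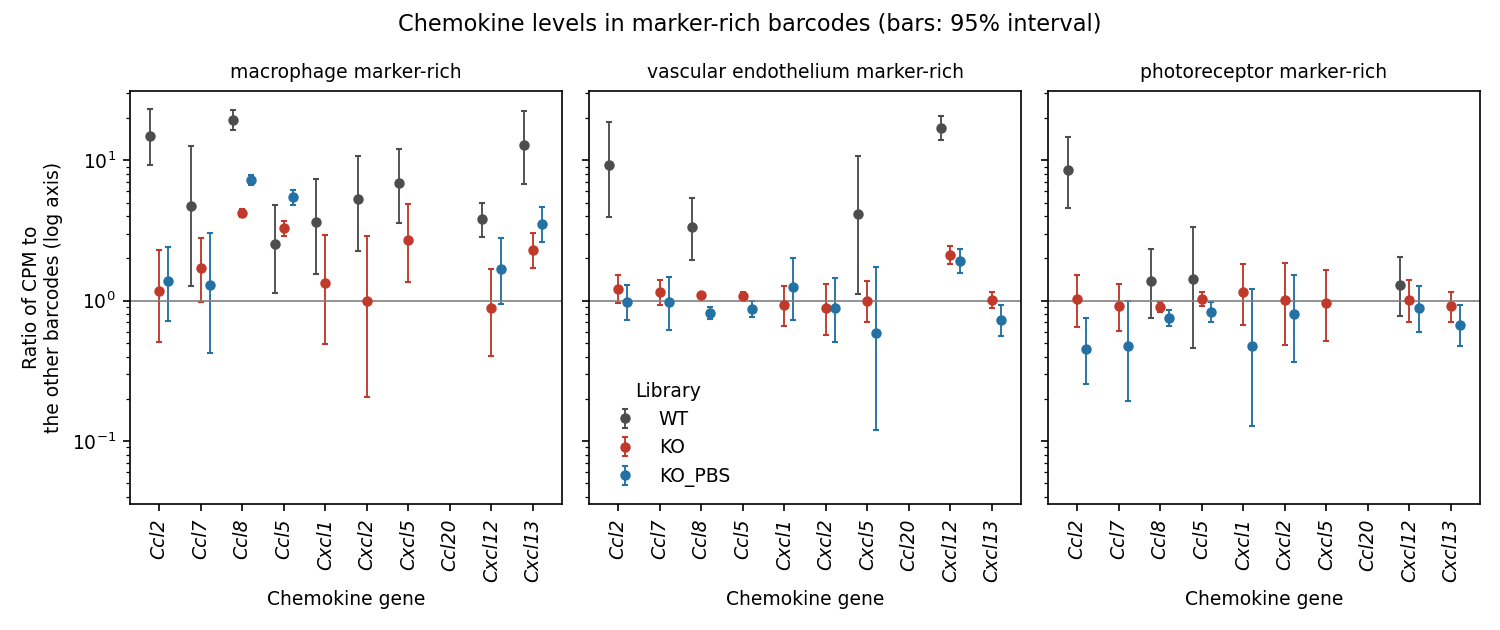
Level of each chemokine in macrophage, vascular endothelial and photoreceptor marker-rich barcodes divided by its level in the other barcodes of the library, on a log axis with 95% intervals; values from under 3 UMIs are not drawn. Ccl8 lies at 19.5, 4.23 and 7.26 in the macrophage panel and Cxcl12 at 17.1, 2.12 and 1.93 in the vascular panel for WT, KO and KO_PBS. The high WT point for Ccl2 in the photoreceptor panel comes from 1 barcode with 14 UMIs. Thresholds follow each library's own marker level, so points should not be compared between libraries.

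The genes that accompanied each chemokine were read from barcodes rich in it, those with at least 3 of its UMIs and at least 10 times its library level. Their ratios to the whole library are descriptions without a test, over 15 to 351 barcodes of 1 library. In WT 25 barcodes were rich in Ccl8, and the genes of at least 20 UMIs with the highest ratios were Wfdc17 (44.5 times), Pf4 (39.9 times), Lyz2 (32.1 times), C1qb (27.4 times) and C1qc (24.8 times). Lyz2 and the C1q genes are macrophage markers, and 18 of the 25 barcodes were also macrophage marker-rich. The 21 WT barcodes rich in Cxcl12 were led by Rbp7 (268 times) and Fabp4 (118 times), with Cdh5, the endothelial cadherin, at 55.7 times and Plvap at 40.5 times. Of these 21, 16 were vascular endothelial marker-rich. Hemoglobin genes were high there too, their 4 markers at 54.1 times the library level.

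In KO the Cxcr2 ligands shared barcodes. The 53 barcodes rich in Cxcl1 had 254 CPM of Cxcl5, 25 times the library level (19.3 to 31.8), with Cxcl5 found in 32 of the 53. Their Cxcl2 level was 6.22 times (3.21 to 10.9) and their Ccl7 level 4.53 times (2.99 to 6.60) that of the library. Conversely, the 64 barcodes rich in Cxcl5 had 13.8 times the Cxcl1 (10.2 to 18.3). Among the 10 genes with the highest ratios in both sets were Timp1, an inhibitor of matrix metalloproteinases (16.7 and 16.4 times), Mmp12, a macrophage elastase (9.65 and 14.3 times), and Saa3, an acute-phase serum amyloid (9.60 and 9.21 times). Saa1, its relative (16.4 and 7.41 times), Spp1, which encodes osteopontin (9.32 and 8.84 times), and Lox, a collagen cross-linking enzyme (6.88 and 6.89 times), were the others. Neutrophil markers summed to 1.79 times the library level in the Cxcl1-rich and 4.38 times in the Cxcl5-rich barcodes, the highest of the marker lists in both, with 1 of 53 and 2 of 64 neutrophil marker-rich. Most of the neutrophil marker sum of KO came from S100a9 and S100a8, which inflamed epithelium also makes. The cornified envelope genes Sprr2f (10.7 times) and Sprr2d (7.99 times) were among the 10 leading genes of the Cxcl5-rich barcodes only. Hemoglobin genes were at 2.78 times in the Cxcl5-rich barcodes. The part of these in the shared genes was not tested.

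Ccl7-rich barcodes of KO, 50 in number, shared some genes with that group. They had 9.27 times the Cxcl5 (6.00 to 13.7), 5.10 times the Ccl2 (3.23 to 7.65), 4.4 times the Timp1 and 3.61 times the Saa3 of the library. Their Ccl8 level was 1.13 times that of the library (0.956 to 1.33), although Ccl8 lies in the same gene cluster. T cell markers were the highest of the marker lists in them, at 1.60 times the library level (83 UMIs). Of the 50, 4 were T cell marker-rich. Neutrophil markers were at 1.35 times. The 25 Cxcl2-rich barcodes of KO were led by Cxcl3 (115 times) and the cornified envelope gene Sprr2e (98.8 times), and their neutrophil markers summed to 10.2 times the library level, largely S100a9 and S100a8, which inflamed epithelium also makes. Of these 25, 3 were neutrophil marker-rich.

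Ccl5 and Ccl8 formed another pair. In KO the 76 Ccl5-rich barcodes had 3.74 times the Ccl8 of the library (3.36 to 4.16) and the 54 Ccl8-rich barcodes 3.51 times the Ccl5 (2.89 to 4.21). Gm15056 (3.83 times), Lyz2 (3.48 times), Ctss (2.96 times) and C1qb (2.96 times) accompanied Ccl5. Macrophage markers were at 2.89 times and NK cell markers at 2.40 times (16 UMIs) the library level in these Ccl5-rich barcodes. Over all 5727 KO barcodes with 3 or more Ccl5 UMIs, the leading genes of at least 50 UMIs differed. They were Klra1 (1.78 times), Ifng (1.67 times) and Gzma (1.64 times). Pf4 (7.91 times), Retnla (7.47 times) and Mrc1 (7.43 times), a mannose receptor of macrophages, accompanied Ccl8. Cxcl13-rich barcodes of KO, 287 in number, had follicular dendritic or lymphoid stromal cell markers at 1.43 times the library level (209 UMIs). This was the highest of the marker lists, although none of the 287 was rich in them. The same list was at 0.773 times in the Cxcl13-rich barcodes of KO_PBS, from only 10 UMIs. It holds Ccl19, whose level was far lower in KO_PBS, so these ratios are not compared. The next values are again those of the 287 barcodes of KO. Macrophage markers were at 1.38 times, B cell markers at 1.11 times and plasma cell markers at 0.945 times. The gene with the highest ratio among those of at least 20 UMIs, Igkv8-30 at 3.12 times, was found in 10 of the 287. In all 410 KO barcodes with 3 or more Cxcl13 UMIs, whatever their depth, the leading gene of at least 50 UMIs was Mertk, a receptor of macrophages for apoptotic cells, at 1.97 times.

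In KO_PBS, Cxcl1 and Cxcl2 were high in some of the same barcodes, although most UMIs of both lay outside them. Barcodes with 3 or more UMIs of the gene held 24.7% of the Cxcl2 and 6.31% of the Cxcl1 UMIs, and for Cxcl1 the share in KO was 5.03%. The 40 barcodes rich in Cxcl2 held 70 of the 1268 Cxcl1 UMIs, a level 65.6 times that of the library (51.2 to 82.9). The 15 barcodes rich in Cxcl1 had 362 times the Cxcl2 (315 to 414), from 212 UMIs in 11 of the 15. After Cxcl1, the leading genes of at least 20 UMIs in the Cxcl2-rich barcodes were Ppp1r15a, a stress response gene (25.7 times the library level), 1190028D05Rik (25 times), Tnf (22.6 times), Tnip3 (19.2 times) and Il1a (18.8 times), followed by Lce3b, Acpp and Slc1a1. In the Cxcl1-rich barcodes, Cxcl2 was followed by Ppp1r15a (29.9 times), Fam43a (26 times), Tnfaip3, an inhibitor of NF-kB signalling (25.3 times), Il1a (25.1 times) and Acpp (23.8 times). Of the marker lists, that of neutrophils had the highest ratio in both sets, 2.71 times the library level in the Cxcl1-rich and 2.76 times in the Cxcl2-rich barcodes, from 13 and 32 UMIs. Conjunctival or skin-type epithelial markers were at 2.00 times (102 UMIs) in the Cxcl1-rich and 1.28 times (157 UMIs) in the Cxcl2-rich barcodes. In the latter, Schwann cell markers (1.46 times, 42 UMIs) and lymphatic endothelial markers (1.31 times, 30 UMIs) ranked above them. None of the 15 or 40 was neutrophil marker-rich, a class of 28 barcodes in the whole library. Cxcl5 had no barcode with 3 or more UMIs in KO_PBS.

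Ccl2 of KO_PBS came with another set of genes. Its 41 rich barcodes were led by Gm17268, the overlapping gene on the other strand (52.1 times), followed by Cxcl10 (18.3 times), the adhesion receptor Vcam1 (14.9 times) and the interferon-induced Gbp5 (11.4 times). In KO, 27 Ccl2-rich barcodes had Cxcl10 at 3.56 times the library level. The 63 Cxcl13-rich barcodes of KO_PBS were led by Aoah (8.15 times) and also had 3.51 times the Ccl8 (2.98 to 4.11) and 3.53 times the Ccl5 (2.85 to 4.33) of the library. Their dendritic cell markers summed to 2.63 times and their macrophage markers to 2.51 times the library level, with 2 and 4 of the 63 rich in these markers. Ccl8-rich barcodes, 241 in all, were led by Hal (5.63 times) and Ccl6 (4.98 times). Ccl5-rich barcodes, 351 in all, were led by Cst7 (6.25 times). Their macrophage, NK cell and T cell markers were at 2.12, 1.90 and 1.89 times the library level.

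**Figure D5:**
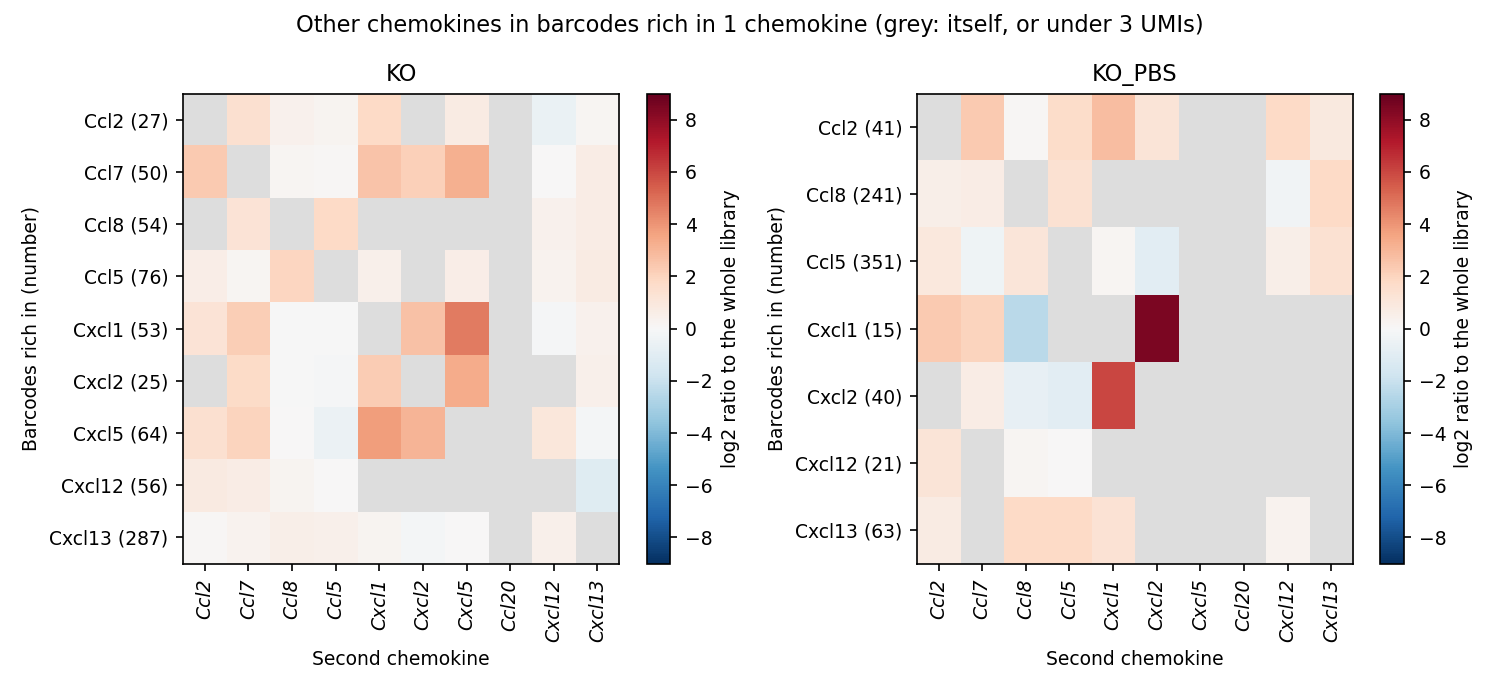
Log2 ratio of a second chemokine's level to its whole-library level in barcodes rich in 1 chemokine, for KO and KO_PBS; each row names the chemokine that chose the barcodes and their number. Grey cells are the chemokine itself or fewer than 3 UMIs. Cxcl1, Cxcl2 and Cxcl5 share the red block in KO, and in KO_PBS the Cxcl1 and Cxcl2 cells stand for 362 and 65.6 times the library level.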

How the data were processed

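The authors deposited, per the file headers, a sparse matrix of UMI counts for each library, in whole numbers with no normalization. Reads were counted with Cell Ranger 7.0.1 against mm10, per the submitters' processing notes; the annotation, the use of intronic reads and strand, and the barcode filter are not given in the sources used here. The kit captures 3′ ends (10x Genomics, per the labels' protocols), so levels reflect the 3′ ends of nuclear RNA and are not scaled by length.

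Counts were summed per library over the 30406 Ensembl IDs shared by the 3 gene lists, which held 99.6%, 99.6% and 99.3% of the UMIs in WT, KO and KO_PBS, and scaled to a library total of 1000000 (CPM). Software was python 3.11.15 with pandas 2.3.3, numpy 2.4.6, scipy 1.17.1 and matplotlib 3.10.9. Symbols were matched by Ensembl ID, since 597 IDs carry another symbol in KO_PBS. The gene list of KO_PBS held 31053 IDs, against 32285 in WT and in KO. How far this difference entered the KO_PBS ratios and the shift of all genes was not tested. Every deposited barcode was used and no doublets were removed. The rule of size was checked on simulated data. The 10 chemokines, the gene lists and the markers were chosen with earlier results of these data known; the rules for marker-rich and chemokine-rich barcodes, the threshold of 10 times, the thinning of photoreceptor marker-rich barcodes and the choice of sequences to print were set after seeing the data. Other genes named were the extremes of a list, receptors of the 10, or the leading genes of chemokine-rich barcodes; Tnf, Cxcl3 and a few of the latter were chosen after their values were seen. The values of 1 receptor gene are not reported here.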

Additional observations from a re-analysis of the deposited data

How the results depend on the processing

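No paired analysis was possible because each group is 1 library. All 10 chemokines were higher in KO than in WT under every one of the 7 alternatives run. Of the single chemokine ratios recomputed under them, 59 stayed within their counting interval for KO over WT and 11 moved beyond it. The numbers were 40 and 30 for KO_PBS over KO and 51 and 19 for KO_PBS over WT. No called direction reversed, but in KO_PBS over KO only Cxcl5 was called. Among the uncalled ratios there, the log2 sign changed under an alternative for Cxcl2 (0.33 to -0.30), Cxcl12 (0.16 to -0.47) and Ccl20 (-0.09 to 0.06). In KO_PBS over KO the number of chemokines lower was 5 when centred on the median gene and 2 without immunoglobulin, mitochondrial and ribosomal genes and AY036118. For all genes, KO over WT gave 2872 lower with no UMI minimum, and 7000 higher and 3202 lower at a fold of 1.5. KO_PBS over KO gave 2891 lower when centred and 1925 lower at a fold of 1.5, and KO_PBS over WT gave 6558 higher and 5106 lower when centred and 1668 lower at a fold of 1.5. The share of barcodes with any of the 10 chemokines in WT, KO and KO_PBS was 1.38%, 55.2% and 41.6% when thinned to 1000 UMIs and 0.739%, 33.8% and 24.3% when thinned to 500; in KO_PBS it was 54.9% in barcodes with at least 500 genes and at most 5% mitochondrial UMIs. At a marker threshold of 10 times the library, added after seeing the data, the chemokines with an interval above 1 numbered 2 of the former 4 in macrophage, 1 of 3 in vascular endothelial, 1 of 4 in T cell and 0 of 3 in B cell marker-rich barcodes of KO, and 1 of 4 in T cell marker-rich barcodes of KO_PBS. Fewer barcodes entered at that threshold. Where a WT count is small (12 Ccl20 UMIs), depth limits the ratio.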
